A study of Homo sapiens with 18 samples.

Results

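HMGA2, HMGA1, LIN28B, IGF2BP1, IGF2BP2 and IGF2BP3 are 6 genes of an oncofetal programme, found here as 6 of the 26668 gene symbols in the deposited expression table. They were chosen by symbol as known let-7 targets, with their changes after OFD1 knockdown already known, so the knockdown values of these 6 genes are described without a test. RNA was sequenced from 3 established human lines of pancreatic cancer, which were PaTu 8988T, PANC-1 and MIA PaCa-2, with 3 control and 3 shOFD1 libraries per line, 18 in all. Each line carried an shRNA against OFD1 under a Tet-on promoter, which the methods describe as switched on with doxycycline, DMSO being the control. The shOFD1 samples were collected 72 h after induction. The labels call the controls shControl, wild-type and untreated and name no collection time, whereas the design text speaks of days 0 and 3. Whether the controls were uninduced cells of the same line or separate cells, and whether time in culture differed, cannot be told apart from the knockdown itself. Every shOFD1 library had doxycycline and no control did, so an effect of the drug alone cannot be told apart either. Replicates 2 and 3 of both PaTu 8988T groups carry other line numbers in their source labels, and their titles were followed. Nothing states whether replicates were separate cultures, so errors measure only the spread between these libraries.

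HMGA2 and HMGA1 are architectural chromatin proteins that bind AT-rich DNA through AT-hooks. LIN28B is an RNA-binding protein that blocks the maturation of the let-7 miRNAs. IGF2BP1, IGF2BP2 and IGF2BP3 bind mRNAs, among them that of IGF2, and affect their stability, transport and translation. Most of these genes are active in the embryo, are silent or low in most adult tissues and return in many cancers. The let-7 family pairs through its seed, bases 2 to 8, with sites in 3′ UTRs and lowers the output of the matching mRNAs. LIN28B is thus both a target and an inhibitor of let-7.

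Mature let-7 sequences from RefSeq (GRCh38.p14) are shown to make the shared seed visible, with the seed in capitals. All 9 mature family members had the seed GAGGUAG, and the 4 printed here differ mainly in the 3′ part. The let-7a sequence is made from 3 loci.
let-7a: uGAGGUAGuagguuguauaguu
let-7e: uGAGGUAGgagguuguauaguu
let-7i: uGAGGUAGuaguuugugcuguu
miR-98: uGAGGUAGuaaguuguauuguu

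The 7-base complement of this seed, CTACCTC, was searched on the sense strand of 1 annotated 3′ UTR per gene (GENCODE release 29, GRCh38). Of 18449 UTRs of at least 50 bases, 8.81% held at least 1 match and 0.168% held at least 3. HMGA2, LIN28B and IGF2BP1 each held 4 matches, and 12 genes held 4 or more. HMGA1, IGF2BP2 and IGF2BP3 held 1 each. As the genes were grouped as let-7 targets, this is a property of the choice and not a finding. A match is a description of letters and does not show that let-7 bound there. All 4 windows of HMGA2, the gene with the largest difference below, and the window nearest to the stop codon in each other gene are printed on the coding strand, with the match in capitals. Every window lies in the 3′ UTR within the last exon.
HMGA2 site 1, chr12:65963299-65963320, plus strand: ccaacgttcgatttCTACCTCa
HMGA2 site 2, chr12:65964534-65964555, plus strand: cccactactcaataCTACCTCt
HMGA2 site 3, chr12:65964946-65964967, plus strand: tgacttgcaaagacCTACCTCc
HMGA2 site 4, chr12:65965799-65965820, plus strand: atcaaaacacactaCTACCTCt
HMGA1, chr6:34245830-34245851, plus strand: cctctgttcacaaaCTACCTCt
LIN28B, chr6:105078813-105078834, plus strand: cccggttgcaaagtCTACCTCa
IGF2BP1, chr17:49051062-49051083, plus strand: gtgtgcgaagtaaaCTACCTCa
IGF2BP2, chr3:185644220-185644241, minus strand: acacacagaagaagCTACCTCa
IGF2BP3, chr7:23311795-23311816, minus strand: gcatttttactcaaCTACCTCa

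The matches of HMGA2 began at bases 21, 1256, 1668 and 2521 of its 3003-base 3′ UTR. Those of LIN28B began at bases 44, 2471, 2653 and 4092 of 4549. Those of IGF2BP1 lay farther from the stop codon, at bases 1632, 4269, 4923 and 5568 of 6206. An A follows the match, a base known to strengthen such sites, in 1 of 4 HMGA2 sites, 2 of 4 LIN28B sites and 3 of 4 IGF2BP1 sites.

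Values are FPKM, that is, reads of a gene divided by its length and by library size, and the libraries held 32486479 to 39797537 counted reads. OFD1, the target of the shRNA, was lower in every shOFD1 library than in any control of its line, with log2 fold changes of -1.07 in PANC-1, -0.61 in MIA PaCa-2 and -1.10 in PaTu 8988T. Control replicate 2 of MIA PaCa-2 stood apart. Its median absolute log2 difference from the other controls was 0.393, against 0.200 and 0.203 for those and at most 0.0930 in any other library, so the MIA PaCa-2 values of the members and the list counts that moved are also given without it, a choice made after seeing the data for the lists outside the let-7 targets. OFD1 was at -0.76 without it. The 22 genes named from lists in MIA PaCa-2 kept their sign and a limma adjusted p below 0.05. BACH1, CCND3 and H19 moved from more to less than a 2-fold difference, at log2 fold changes of 0.95, -0.93 and -0.77 without it. Of the epithelial markers, KRT8, KRT18 and KRT19 were above 1 FPKM on average in PANC-1 and MIA PaCa-2. EPCAM and CDH1 were below 1 FPKM in MIA PaCa-2, and KRT19 and CDH1 in PaTu 8988T. The summed level of the 5 epithelial markers was 931 to 952 FPKM in PANC-1 controls and 917 to 937 in shOFD1 libraries, 1620 to 2200 and 1360 to 1390 in MIA PaCa-2, and 1040 to 1070 and 838 to 909 in PaTu 8988T. In PANC-1, 2 of them fell and 3 rose, KRT19 falling from 178 ± 5.01 to 89.2 ± 3.07 FPKM (limma adjusted p = 2.61e-09). In MIA PaCa-2, 1 of 3 tested fell (KRT8), and 0 rose (1 without control replicate 2). In PaTu 8988T, 2 of 3 tested fell (KRT8 and KRT18), and 0 rose. The part of these markers in the other results was not tested. Among 7 markers of leukocytes, endothelium and fibroblasts, CD3E was listed at 0 in all lines, and PECAM1, VWF and DCN were below 1 FPKM on average in all. PTPRC, a leukocyte marker, had a mean of 3.51 FPKM in MIA PaCa-2 controls and 6.0 in shOFD1 libraries, and COL3A1, a collagen gene, 6.37 and 30.1. The summed level of the 7 markers was 8.47 to 11.3 FPKM in MIA PaCa-2 controls and 35.7 to 37.1 in shOFD1 libraries, 35.1 to 36.9 and 40.0 to 40.3 in PANC-1, and 2.92 to 3.29 and 3.08 to 3.77 in PaTu 8988T. Their part in the results was not tested.

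HMGA2 was measured at very different levels in the 3 lines. The PANC-1 controls had 46.0, 46.4 and 47.2 FPKM and the shOFD1 libraries 9.99, 10.1 and 9.83, so the groups lay far apart. The means were 46.5 ± 0.572 and 9.99 ± 0.151 FPKM (SD, n = 3 each), a 4.66-fold lower level after knockdown. On the log2 scale the difference was -2.21, with a standard error of 0.0353. These values rested on 30283 reads in the controls and 6020 in the shOFD1 libraries. In bulk RNA, fewer cells with a transcript and less of it per cell cannot be told apart.

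PaTu 8988T controls had little HMGA2, at 1.84, 1.86 and 1.96 FPKM, and the shOFD1 libraries had 0.724, 0.812 and 0.772. The groups again did not overlap. The log2 fold change was -1.19 with a standard error of 0.102, from 1251 and 503 reads. With a pseudocount of 1 in place of 0.1 it was -0.71, since the levels were near 1 FPKM. MIA PaCa-2 had 4 HMGA2 reads in control replicate 1 and was listed at 0 in its 5 other libraries, so no change was calculated there.

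HMGA2 had the same gene length in the PANC-1 and PaTu 8988T columns, so its control levels could be set side by side. Scaled to library size, PANC-1 controls had 24.6 times the HMGA2 of PaTu 8988T controls, with a 95% exact counting interval from 23.3 to 26.1. Against the 4 reads of MIA PaCa-2 controls, the ratio of PaTu 8988T controls was 338, with an interval from 132 to 1240. Such intervals cover counting error only. The order was PANC-1, PaTu 8988T and MIA PaCa-2, with no overlap between neighbours. The antisense neighbour HMGA2-AS1 was looked up after its values were seen. It was listed at 0 in every PANC-1 library, and a listed 0 can also be a gene that was not counted. In the other lines it had at most 4 reads in any library. Whether counting used strand is not given in the sources used here.

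HMGA1, the relative of HMGA2, was the most abundant of the 6 genes in every line. In PANC-1 the controls had 302, 314 and 296 FPKM and the shOFD1 libraries 237, 237 and 239, which did not overlap. The log2 fold change was -0.36 with a standard error of 0.0235. In PaTu 8988T the controls had 524, 557 and 548 FPKM and the shOFD1 libraries 449, 500 and 452, also without overlap. Their log2 fold change was -0.22, with a standard error of 0.0473. In MIA PaCa-2 the controls had 364, 491 and 371 FPKM and the shOFD1 libraries 454, 463 and 454. These groups overlapped because control replicate 2 was the highest of all 6. Together they gave a log2 fold change of 0.17 with a standard error of 0.117, and 0.31 without control replicate 2. HMGA1 was lower in PANC-1 and PaTu 8988T, as HMGA2 was, and its fold changes were smaller. The ratio of HMGA2 to HMGA1 FPKM in PANC-1 was 0.153 ± 0.00564 in controls and 0.0421 ± 0.000818 after knockdown (SD, n = 3 each).

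LIN28B, the inhibitor of let-7 maturation, had a level that could be compared only in PANC-1. The controls had 5.53, 5.47 and 5.51 FPKM and the shOFD1 libraries 13.6, 13.6 and 13.8. All shOFD1 libraries were above all controls, 2.48-fold on average. This is a log2 fold change of 1.30 with a standard error of 0.047, from 3402 reads in the controls and 7819 after knockdown. LIN28B and HMGA2, which hold the same number of seed matches, therefore lay in opposite directions in the same libraries. The ratio of HMGA2 to LIN28B FPKM, both scaled by gene length, was 8.46 ± 0.123 in the controls and 0.732 ± 0.0179 in the shOFD1 libraries (SD, n = 3 each), so HMGA2 was the more abundant of the pair before knockdown and the less abundant after it.

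In PaTu 8988T, LIN28B had 2 reads over the controls and 2 over the shOFD1 libraries. In MIA PaCa-2 it was listed at 0 in all 6 libraries, and a listed 0 in this table can also be a gene that was not counted. Scaled to library size, PANC-1 controls had 1730 times the LIN28B of PaTu 8988T controls, with a counting interval from 479 to 14300 because of the 2 reads. LIN28A, the paralogue of LIN28B, had at most 5 reads in any PANC-1 library and was listed at 0 in the other lines.

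IGF2BP1 had a level above a few reads in PANC-1 and in neither of the other lines. The controls had 9.06, 8.55 and 8.91 FPKM and the shOFD1 libraries 11.1, 11.5 and 11.3, with no overlap. They differed by a log2 fold change of 0.35, with a standard error of 0.0475. Each library of MIA PaCa-2 and PaTu 8988T had 0 or 1 read, and PANC-1 controls had 4740 times the level of MIA PaCa-2 controls, with a counting interval from 1310 to 39100.

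IGF2BP3 was detected in all 3 lines and was higher in every shOFD1 library than in any control of its line. In MIA PaCa-2 the controls had 54.0, 31.7 and 53.8 FPKM and the shOFD1 libraries 77.0, 78.5 and 78.7. The means differed 1.68-fold, and the low value of control replicate 2 widened the gap. Its log2 fold change was 0.79 with a standard error of 0.205, and 0.53 without that library. In PANC-1 the controls had 27.7, 28.8 and 27.7 FPKM and the shOFD1 libraries 34.0, 32.4 and 32.9, a log2 fold change of 0.24 with a standard error of 0.0353. In PaTu 8988T the controls had 9.09, 8.64 and 9.0 FPKM and the shOFD1 libraries 10.5, 9.59 and 10.3, a log2 fold change of 0.18 with a standard error of 0.0537.

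IGF2BP2 is the member of this family best known from adult tissue. The PANC-1 groups overlapped, with 19.3, 20.0 and 19.2 FPKM in controls and 18.7, 18.7 and 19.5 after knockdown, a log2 fold change of -0.04 with a standard error of 0.0388. In MIA PaCa-2 the controls had 32.2, 26.3 and 32.9 FPKM and the shOFD1 libraries 38.8, 40.2 and 38.8. This gave a log2 fold change of 0.37 with a standard error of 0.103, and 0.27 without control replicate 2, the lowest library. In PaTu 8988T the controls had 39.1, 40.7 and 39.5 FPKM and the shOFD1 libraries 41.7, 41.0 and 41.7, which did not overlap but differed by only 0.06 on the log2 scale, with a standard error of 0.0359. The antisense gene IGF2BP2-AS1 was listed at 0 in every PANC-1 library and had at most 3 reads in any library of the other lines.

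**Figure D1:**
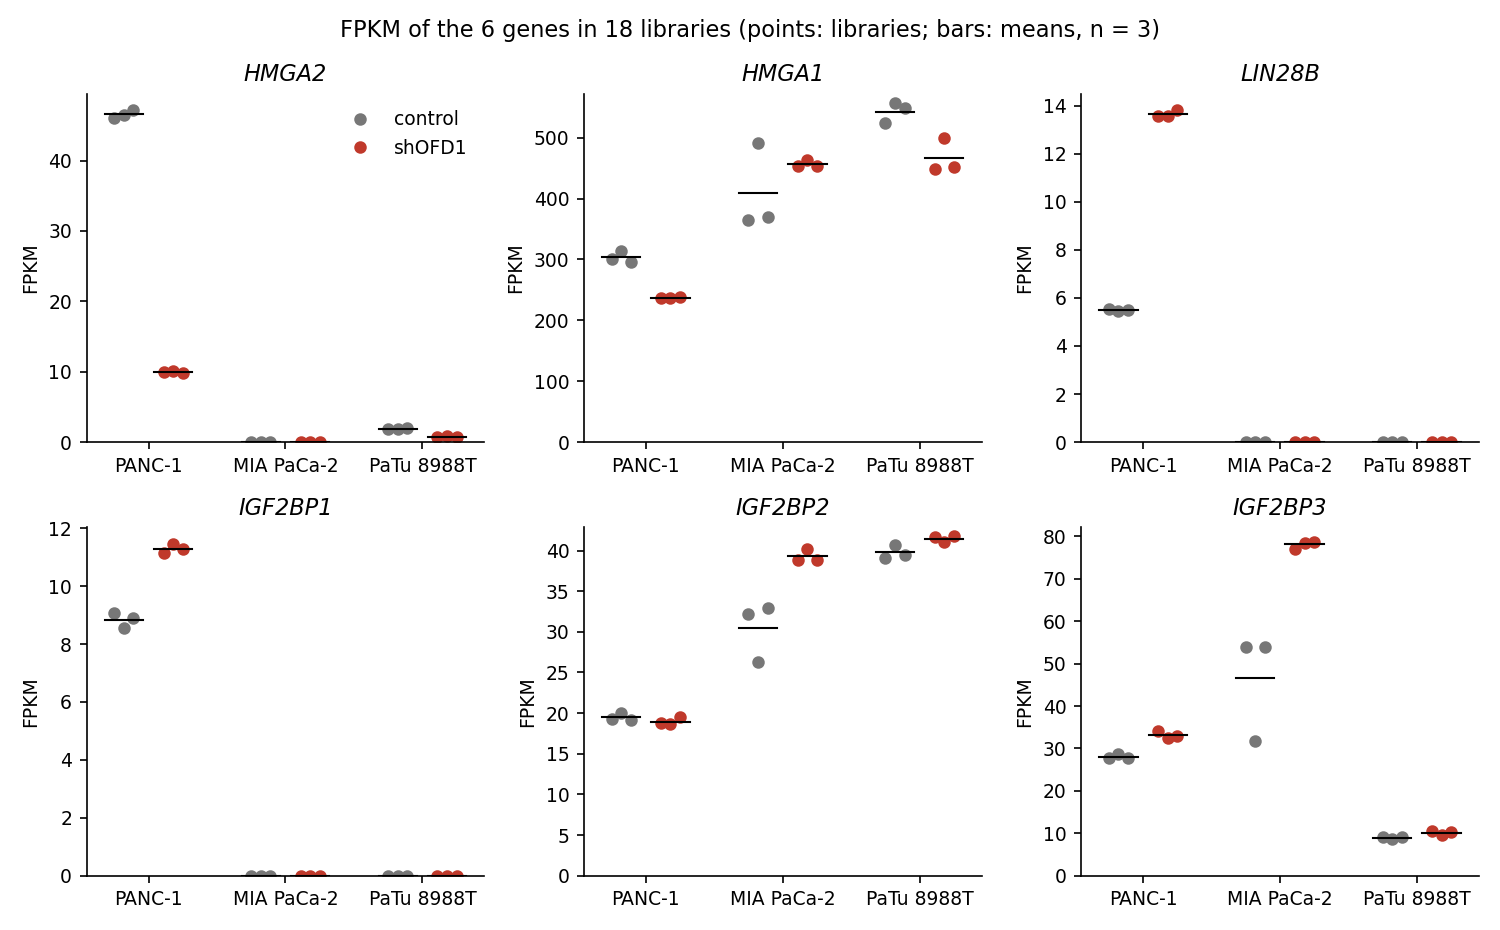
FPKM of the 6 genes in each of the 18 libraries (grey points: controls; red points: shOFD1 libraries; black bars: means of 3 libraries). HMGA2 was lower and LIN28B higher after knockdown in PANC-1, LIN28B and IGF2BP1 were at or near 0 in the other lines, and MIA PaCa-2 control replicate 2 lay apart in HMGA1, IGF2BP2 and IGF2BP3. PANC-1 levels of HMGA1, IGF2BP2 and IGF2BP3 were scaled with other gene lengths than those of the other lines.

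A gene entered the fit of a line when its 6 libraries averaged 1 FPKM or more, which 6 of the 6 members did in PANC-1, 3 in MIA PaCa-2 and 4 in PaTu 8988T. To be called, a gene needed both a 2-fold difference and limma's adjusted p under 0.05. In PANC-1, 1 member was called lower (HMGA2), where 4.84% of 10902 genes were, and 1 higher (LIN28B), where 1.75% were. With the adjusted p alone, 2 were lower and 3 higher, where 32.2% and 40.1% of genes were, and 5 of the 6 had groups that did not overlap, against 75% of genes. In MIA PaCa-2 no member passed both criteria, where 3.68% of 10758 genes were called lower and 4.07% higher. With the adjusted p alone, 0 were lower and 2 higher, where 21.7% and 18.7% of genes were, and 2 of 3 did not overlap, against 59.3% of genes. In PaTu 8988T, 1 was called lower (HMGA2), where 0.841% of 10698 genes were, and 0 higher, where 0.159% were. With the adjusted p alone, 2 were lower and 1 higher, where 18.5% and 20.9% were, and 4 of 4 did not overlap, against 51.9% of genes. The members were selected with this contrast known, and nothing is read from these counts.

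**Figure D2:**
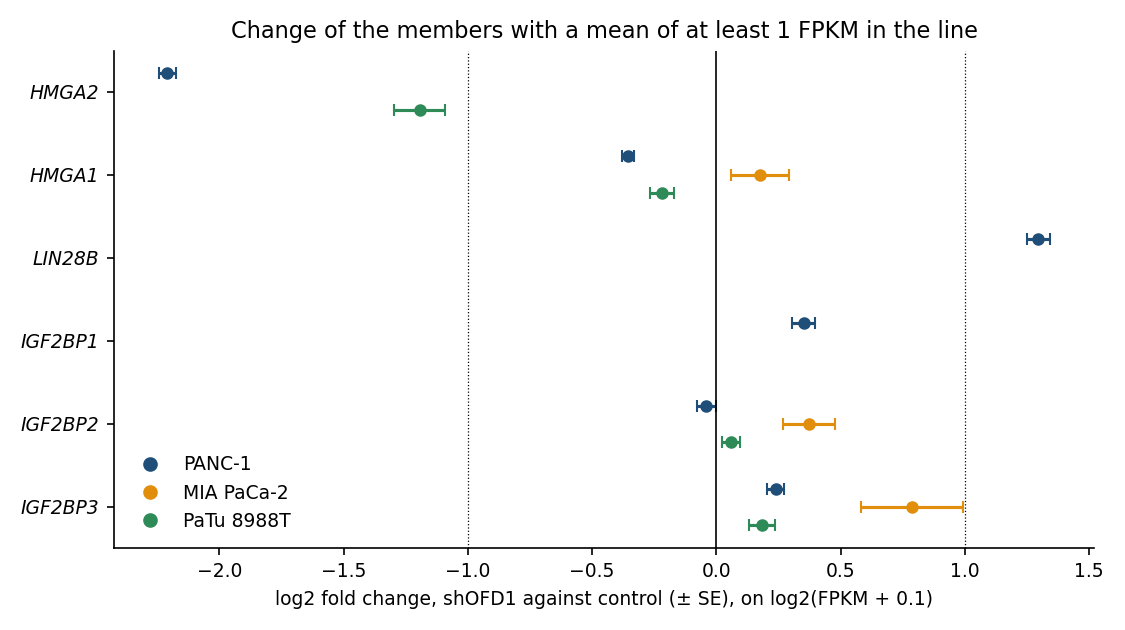
Log2 fold change of shOFD1 against control libraries, with limma's standard error (bars), for members that averaged 1 FPKM or more in the line (colours: lines; dotted lines: 2-fold). HMGA2 lay at -2.21 in PANC-1 and -1.19 in PaTu 8988T and LIN28B at 1.30 in PANC-1, and the other values lay within 2-fold.

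The level of the members before knockdown was not used to choose them, and it was compared between MIA PaCa-2 and PaTu 8988T controls for genes whose length was the same in both sets of columns. IGF2BP3 was higher in MIA PaCa-2, at 46.5 ± 12.8 against 8.91 ± 0.237 FPKM (SD, n = 3 each), a log2 difference of 2.33 with a standard error of 0.209 (limma, adjusted p = 8.02e-05). HMGA1 was lower in MIA PaCa-2 than in PaTu 8988T, at 409 ± 71.5 against 543 ± 17.2 FPKM, a log2 difference of -0.42 with a standard error of 0.120 (adjusted p = 0.0177). IGF2BP2 was lower too, at 30.5 ± 3.63 against 39.8 ± 0.852 FPKM, a log2 difference of -0.39 with a standard error of 0.103 (adjusted p = 0.0132). For each of the 3 genes all libraries of one line lay on the same side of all libraries of the other. Of 10484 genes tested, 66.6% had an adjusted p below 0.05, so a difference between these lines was the common case. The IGF2BP3 difference stayed past the threshold without any 1 library. That of HMGA1 had an adjusted p of 0.0554 and 0.0564 without MIA PaCa-2 control replicate 1 or 3 and 0.0619 and 0.0569 without PaTu 8988T control replicate 2 or 3. That of IGF2BP2 had 0.0554 without PaTu 8988T control replicate 2. Without MIA PaCa-2 control replicate 2 the differences were 2.58, -0.56 and -0.29 for IGF2BP3, HMGA1 and IGF2BP2, all past the threshold.

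In PANC-1, HMGA1 and IGF2BP3 were scaled with shorter gene lengths, of 2052 and 4392 bases against 2327 and 6082 in the other lines, so their FPKM were not compared with those of the other lines. In reads per 1000000 counted, without a correction for length, IGF2BP3 was at 283 ± 77.9 in MIA PaCa-2, 123 ± 2.82 in PANC-1 and 54.2 ± 1.44 in PaTu 8988T controls (SD, n = 3 each). HMGA1 was at 1263 ± 39.9 in PaTu 8988T, 951 ± 166 in MIA PaCa-2 and 624 ± 18.6 in PANC-1. The lines were therefore distinguished by which members they had. PANC-1 had all 6, PaTu 8988T had HMGA1, IGF2BP2, IGF2BP3 and a low level of HMGA2, and MIA PaCa-2 had HMGA1, IGF2BP2 and IGF2BP3.

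The wider let-7 target list held 35 other known targets. In PANC-1, 30 were tested, of which 9 fell, 15 rose and 6 did not pass an adjusted p of 0.05, with a median log2 fold change of 0.22 beside 0.06 over all genes. RRM2, a subunit of ribonucleotide reductase, fell from 36.5 ± 2.40 to 9.25 ± 0.740 FPKM (log2 fold change -1.97, adjusted p = 3.43e-09), and CDK6, a G1 kinase, fell from 10.6 ± 0.654 to 4.99 ± 0.235 (-1.06, adjusted p = 2.24e-07). ARID3B, an AT-rich DNA-binding protein, rose from 4.57 ± 0.158 to 12.2 ± 0.221 FPKM (1.40, adjusted p = 8.54e-09). CCND2, a D-type cyclin, rose from 0.412 ± 0.0838 to 1.62 ± 0.167 FPKM (1.76, adjusted p = 8.23e-06). Among all genes tested in PANC-1, 32.2% fell and 40.1% rose. In MIA PaCa-2 these shares were 21.7% and 18.7%, and in PaTu 8988T 18.5% and 20.9%.

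In MIA PaCa-2, 25 of the list were tested, of which 8 fell and 6 rose, with a median of -0.08 beside -0.03 over all genes. Without control replicate 2, 11 fell and 10 rose. Without control replicate 3 or any single shOFD1 library, 4 fell, and without control replicate 1, 5 fell. RRM2 fell (-1.05, adjusted p = 0.00081), as did HRAS, a RAS GTPase (-0.96, adjusted p = 0.00509). E2F5, a repressive E2F factor, rose (1.39, adjusted p = 0.0024), as did BACH1, a haem-responsive repressor (1.27, adjusted p = 0.0104). In PaTu 8988T, 28 were tested, of which 6 fell and 8 rose, with a median of 0.07 beside 0.03. The falls of the receptors INSR and IGF1R were small there (-0.37, adjusted p = 0.00218, and -0.32, adjusted p = 0.00504), as were the rises of CDC25A, a cell cycle phosphatase (0.59, adjusted p = 0.000109), and E2F2 (0.53, adjusted p = 0.00533). All these p-values are limma's, adjusted over all genes of the line.

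All tested genes outside the members were also sorted by the number of seed matches. In each line the median was higher for genes with 2 or more matches than for genes with none. Genes with 1 match, a larger group, had medians close to those of genes with none. These were 0.0549 over 939 genes in PANC-1, -0.0418 over 851 in MIA PaCa-2 and 0.0314 over 851 in PaTu 8988T. In PANC-1 the 118 genes with 2 or more matches had a median log2 fold change of 0.155, with 25.4% lower and 48.3% higher at an adjusted p below 0.05. The 9424 genes with no match had a median of 0.0578, with 32.3% lower and 39.9% higher. In MIA PaCa-2 the medians were 0.108 over 97 genes and -0.0463 over 8765 genes. Without control replicate 2 the MIA PaCa-2 median was 0.07 over the 97 genes and -0.0484 over the 8765. In PaTu 8988T they were 0.0417 over 100 genes and 0.0265 over 8757 genes. That PaTu 8988T median of 0.0417 was 0.00674, 0.067 and 0.0123 without shOFD1 replicate 1, 2 or 3 and 0.0249 without control replicate 3. It was 0.00913 with no filter on low values and 0.0976 with a filter at 5 FPKM, so single libraries and the filter moved it. The median of genes with no match is not given for these settings, so they do not show whether the separation changed. These are descriptions with no test, and UTR length was not matched between the groups. The let-7 miRNAs themselves were not measured by this table.

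Factors that make, modify or use let-7 were listed next, 19 genes such as the processing enzymes, the uridylases recruited by LIN28 proteins and the Argonautes. In PANC-1, 17 were tested, of which 2 fell and 9 rose, where 32.2% and 40.1% of all genes did. Their median was 0.125 beside 0.0602 over all genes. AGO1, an Argonaute, fell from 8.28 ± 0.337 to 5.25 ± 0.0767 FPKM (log2 fold change -0.65, limma adjusted p = 3.55e-06), and XPO5, the exporter of miRNA precursors, fell (-0.50, adjusted p = 8.26e-06). TUT4, a uridylase that acts with LIN28 proteins, rose from 16.6 ± 0.278 to 22.2 ± 0.489 FPKM (0.42, adjusted p = 4.74e-06), as did TRIM25, an E3 ligase and cofactor of that step (0.45, adjusted p = 2.38e-06). LIN28B was higher in the same libraries, and LIN28A had at most 5 reads in any of them. A link between these changes was not tested. In MIA PaCa-2, 17 were tested, of which 5 fell and 3 rose (8 and 5 without control replicate 2), where 21.7% and 18.7% of all genes did. Their median was 0.0639 beside -0.0312. TARBP2, a Dicer partner (-0.88, adjusted p = 0.00867), and DGCR8, the Drosha partner (-0.63, adjusted p = 0.0101), were among the falls. MSI1, an RNA-binding protein (2.20, adjusted p = 0.00189), and TRIM25 (0.58, adjusted p = 0.00115) were among the rises. In PaTu 8988T, 16 were tested, of which 1 fell (XPO5, -0.20, adjusted p = 0.00348) and 5 rose, led by MSI1 (0.47, adjusted p = 0.0137) and TARBP2 (0.42, adjusted p = 0.00216). Of all genes, 18.5% fell and 20.9% rose there, and the list median was 0.0847 beside 0.0275.

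Of 7 let-7 host genes, MIRLET7DHG was not analysed here, and MIRLET7BHG and MIRLET7A1HG were listed at 0 in PANC-1 and had means under 1 FPKM elsewhere. HUWE1, the host of let-7f-2 and miR-98, rose in PANC-1 (0.14, adjusted p = 0.00127) and MIA PaCa-2 (0.74, adjusted p = 0.000466), and WDR82, the host of let-7g, fell in both (-0.45, adjusted p = 1.67e-06, and -0.68, adjusted p = 0.00121). MIR100HG, the host of let-7a-2, fell in PaTu 8988T (-0.70, adjusted p = 0.000821). The level of a host transcript is not that of its miRNA.

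RNAs known to be bound by IGF2BP proteins made a list of 19. In PANC-1, 16 were tested, of which 10 fell and 5 rose, with a median of -0.38 beside 0.06 over all genes. CD44, a hyaluronan receptor, fell from 123 ± 1.43 to 47.1 ± 0.693 FPKM (log2 fold change -1.39, limma adjusted p = 8.96e-11) and PDLIM7, a cytoskeletal adaptor, fell (-0.88, adjusted p = 2.72e-06). PEG10, an imprinted placental gene, rose from 53.0 ± 0.532 to 118 ± 4.87 FPKM (1.15, adjusted p = 1.23e-09), and BTRC, a ubiquitin ligase subunit, rose (0.43, adjusted p = 4.32e-05). IGF2BP1 and IGF2BP3 were higher in the shOFD1 libraries of PANC-1, and a link with these changes was not tested. In MIA PaCa-2, 16 were tested, of which 4 fell and 0 rose, with a median of -0.00349 beside -0.0312 over all genes. Without control replicate 2, 8 fell and 6 rose. The falls were led by CCND3, a D-type cyclin (-1.06, adjusted p = 0.00139), and the imprinted RNA H19 (-1.02, adjusted p = 0.00942). In PaTu 8988T, 14 were tested, of which 6 fell and 5 rose, with a median of 0.0179 beside 0.0275. FSCN1, an actin bundler, fell (-0.54, adjusted p = 2.99e-05), as did PDLIM7 (-0.39, adjusted p = 0.000408), while SRF and CCND3 each rose (0.24, adjusted p = 0.00338 and 0.00406).

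Genes tied to HMGA proteins made a list of 13. In PANC-1, 9 were tested, of which 7 fell and 2 rose, with a median of -0.72 beside 0.06 over all genes, of which 32.2% fell. PLAU, the urokinase activator of plasminogen, fell from 141 ± 4.5 to 41.4 ± 1.5 FPKM (log2 fold change -1.77, limma adjusted p = 1.3e-10) and BRCA1, a DNA repair gene, fell from 6.58 ± 0.225 to 2.02 ± 0.149 (-1.66, adjusted p = 4.03e-08). The cyclin genes CCNE2 (-1.60), CCNA2 (-1.16) and CCNB2 (-0.72) were also among the falls, and CCNA2 is in the proliferation list below too. INSR rose (0.49, adjusted p = 0.00671), as did PLAGL2 (0.17, adjusted p = 0.00331), and both are also among the wider let-7 targets. The list was not split by whether HMGA proteins raise or lower a gene, so its counts do not measure HMGA activity. The part of HMGA proteins in these changes was not tested. In MIA PaCa-2, where HMGA2 was at or near 0, 9 were tested, of which 5 fell and 3 rose, with a median of -0.31 beside -0.03. CCNE2, an E-type cyclin, fell there (-1.52, adjusted p = 0.00515), as did BRCA1 (-1.18, adjusted p = 0.00237), while PLAU rose (1.33, adjusted p = 0.000156) and so did the repair gene ERCC1 (0.59, adjusted p = 0.0129). In PaTu 8988T, 9 were tested, of which 4 fell and 3 rose, with a median of -0.02 beside 0.03. BRCA1 (-1.22, adjusted p = 3.76e-06) and PLAU (-0.59, adjusted p = 2.45e-06) fell, and CCNA2 (0.20, adjusted p = 0.0162) and PLAGL2 (0.18, adjusted p = 0.0177) rose.

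**Figure D3:**
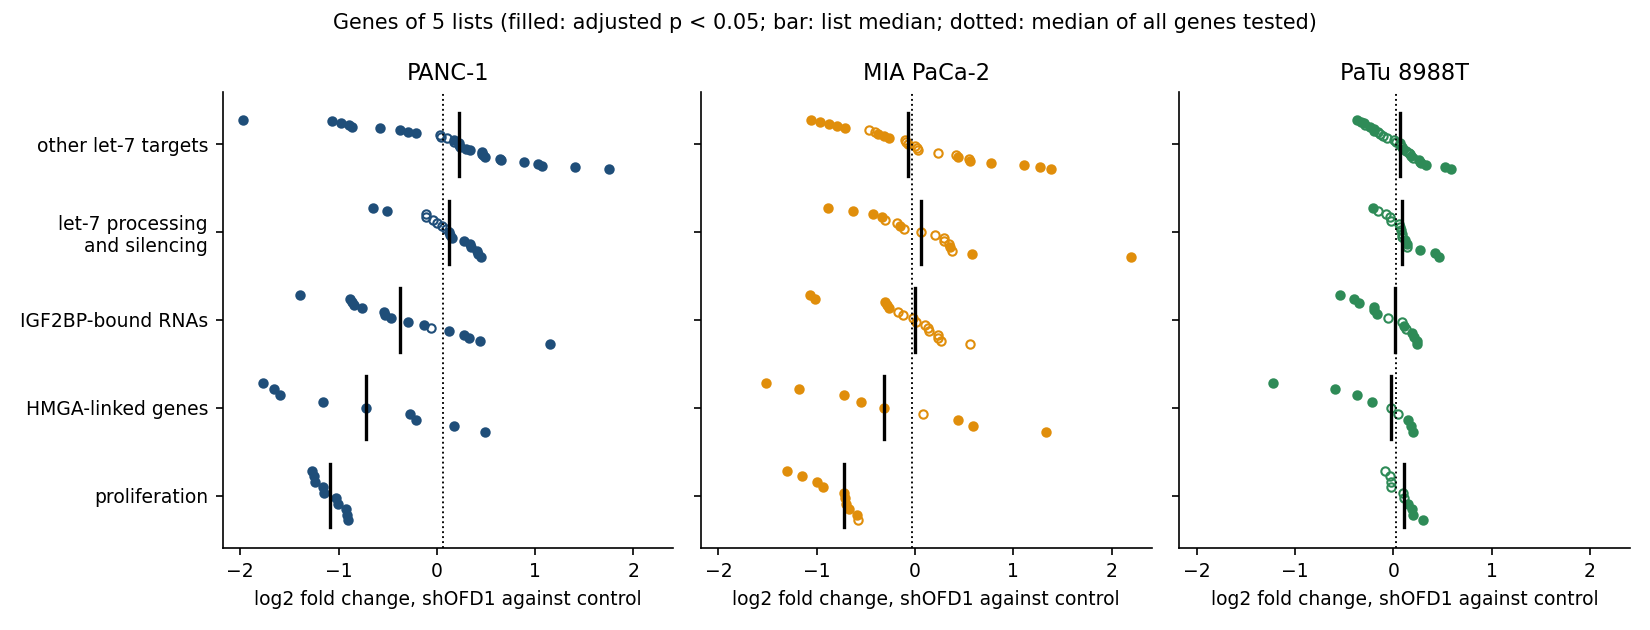
Log2 fold change of shOFD1 against control libraries for the tested genes of 5 lists in each line (filled points: limma adjusted p below 0.05; open points: others; black bars: list medians; dotted lines: medians of all genes tested). Other let-7 targets lay on both sides of 0 in all 3 lines, and the proliferation genes had a median of -1.09 in PANC-1, -0.72 in MIA PaCa-2 and 0.11 in PaTu 8988T.

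Proliferation genes fell in PANC-1 and MIA PaCa-2, while in PaTu 8988T some rose and most did not pass the test. Of 10 such genes, 10 fell in PANC-1, led by TOP2A (-1.27, limma adjusted p = 9.25e-10) and MKI67 (-1.25, adjusted p = 7.48e-09). In MIA PaCa-2, 9 fell (10 without control replicate 2), led by PLK1 (-1.30, adjusted p = 0.000173) and PCNA (-1.15, adjusted p = 0.000207). In PaTu 8988T, 0 fell and 4 rose, led by PCNA (0.30, adjusted p = 0.000209) and CCNA2. Their summed level was 446 to 454 FPKM in PANC-1 controls and 211 to 221 in shOFD1 libraries, 1110 to 1220 and 651 to 653 in MIA PaCa-2, and 741 to 764 and 811 to 825 in PaTu 8988T. Of all genes tested, 32.2% fell in PANC-1 and 21.7% in MIA PaCa-2, and 20.9% rose in PaTu 8988T. The part of proliferation in the values of HMGA2 and of the other members was not tested.

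The genes most like HMGA2 across the 18 libraries were found by Pearson's correlation of log2(FPKM + 0.1), centred within each line, over 9083 genes. They were ENO2, a neuronal-type enolase, with r = 0.982, PLOD1, a collagen lysyl hydroxylase, with 0.979, SEMA4B, a semaphorin, with 0.977, FOSL1, an AP-1 subunit, with 0.976, and FAM234B with 0.976. In the 6 MIA PaCa-2 libraries HMGA2 had 0 to 4 reads, so they add little to the likeness, and over the 12 others r was 0.995, 0.99, 0.996, 0.989 and 0.993 for these genes in the same order, a value added after seeing the data. Libraries of a group share their treatment, so these values mainly record the knockdown contrast by which the members were chosen and are a description of it. ENO2 had log2 fold changes of -1.99, 0.19 and -1.28 in PANC-1, MIA PaCa-2 and PaTu 8988T, and SEMA4B had -2.76, 0.30 and -1.82.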

How the data were processed

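The authors deposited 1 table of FPKM values for 26668 gene symbols in 18 libraries. By the study's methods, HISAT2 was the aligner and HTSeq-count the read counter. Labels and methods name different RNA and library kits. The processing notes list the builds hg38, mm10 and GRCm38, and the annotation is not given in the sources used here. All columns were matched to samples by name. Whole reads per gene and library were recovered from the FPKM steps (tolerance 0.001), which gave the depth and gene lengths. Lengths were the same in MIA PaCa-2 and PaTu 8988T for 97.9% of genes and in PANC-1 and PaTu 8988T for 54.0%, so lines were fitted apart. Genes listed at 0 in all 6 libraries numbered 10360 in PANC-1, 6064 in MIA PaCa-2 and 5170 in PaTu 8988T.

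Genes that averaged 1 FPKM or more in the line were fitted on log2(FPKM + 0.1) with limma 3.58.1 (R 4.3.3), using lmFit and eBayes with a trend, and Benjamini-Hochberg adjustment over all genes. Fold changes on this scale understate those of low genes. The threshold was an adjusted p below 0.05, with a fold above 2 or below 0.5 where stated. With 3 against 3 libraries an exact permutation test cannot give a p below 0.1, so none was used. Controls of MIA PaCa-2 and PaTu 8988T were compared in the same way. Scripts were tested on simulated data. Alternatives were a pseudocount of 1, no filter on low values, a filter at 5 FPKM, median centring, a replicate block and leaving out each library.

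The members and the gene lists were chosen with earlier results of these data known. The lists share genes and are not independent. INSR and PLAGL2 are in the let-7 target and HMGA lists, and CCND1 and MYC in the let-7 target and IGF2BP lists. PEG10 and H19 are in the IGF2BP and oncofetal lists. Genes named from a list were up to 2 with the largest rise and up to 2 with the largest fall past the adjusted p in each line, beside the members, OFD1, antisense neighbours and the 5 genes most like HMGA2. Other genes named were chosen after their values were seen. Intervals are 95% exact binomial (scipy 1.17.1). Seed matches were searched in the 3′ UTR of the principal transcript with the longest coding sequence. Pseudogene copies of HMGA1 were not analysed here, and reads shared with them would be uncertain.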

Additional observations from a re-analysis of the deposited data

Results flagged for a closer look

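Of 50 genes named from the lists, 17 had all knockdown libraries above the controls in one line and all below them in another, which gave 30 differences between lines. None of the differences was tested. The 6 members were not screened. Within a line, 51.9% to 75% of all genes tested had groups that did not overlap, in either direction. The share of all genes with opposite directions between lines is not given here. As the 50 genes were named for large falls or rises in these data, nothing is read from the count of 17. The largest difference between lines belonged to PLAU. It had 141.5, 146 and 137 FPKM in PANC-1 controls against 40.1, 43.1 and 41.2 after knockdown. In MIA PaCa-2 it had 14.1, 14.6 and 15.1 against 37.2, 36.1 and 37.3. E2F2, an activating E2F factor and let-7 target, went from 2.13, 2.14 and 2.10 FPKM to 1.16, 1.12 and 1.01 in PANC-1, and from 1.01, 1.05 and 1.035 to 1.38, 1.75 and 1.5 in PaTu 8988T.

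The log2 fold change in PANC-1 minus that in PaTu 8988T was 0.708 for BACH1, -1.36 for CCNA2, -0.709 for CCND3, -1.43 for E2F2, 0.426 for IGF1R, 0.863 for INSR, 0.535 for KRT8, -1.33 for PCNA, 1.31 for PEG10, -1.26 for PLK1 and -2.24 for RRM2.

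The log2 fold change in MIA PaCa-2 minus that in PaTu 8988T was 1.51 for BACH1, -0.923 for CCNA2, -1.31 for CCND3, -0.963 for CDC25A, -0.767 for DGCR8, -1.24 for E2F2, 0.809 for ERCC1, 0.814 for INSR, -1.46 for PCNA, -0.495 for PLAGL2, 1.92 for PLAU, -1.41 for PLK1, -1.32 for RRM2 and -1.3 for TARBP2.

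The log2 fold change in PANC-1 minus that in MIA PaCa-2 was -0.798 for ERCC1, 1.01 for KRT8, 0.483 for PLAGL2, -3.1 for PLAU and 1.005 for TARBP2. Groups held 3 libraries, so single libraries were not screened as outliers.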

How the results depend on the processing

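Counts of genes past both criteria depended on how low values were treated. With a pseudocount of 1, genes called lower and higher numbered 346 and 96 in PANC-1 (528 and 191 before) and 23 and 11 in PaTu 8988T (90 and 17), and 219 were higher in MIA PaCa-2 (438). With no filter on low values, 360 were higher in PANC-1, 772 higher in MIA PaCa-2, and 192 lower and 45 higher in PaTu 8988T. With a filter at 5 FPKM, 336 and 80 were called in PANC-1, 177 higher in MIA PaCa-2, 23 and 7 in PaTu 8988T, and 938 lower and 929 higher between the controls (1690 and 1588), and 9 let-7 targets rose in PANC-1 (15). Fewer or more genes were tested under these filters.

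With the replicate number as a block, 5 let-7 targets fell in MIA PaCa-2 (8), and the counts of the other comparisons stayed within 1.5 times. The numbers were not taken as pairs, since the correlation of same-numbered deviations ran from -0.111 to 0.13 over the lines, and 4, 0 and 2 of 6 libraries in PANC-1, MIA PaCa-2 and PaTu 8988T correlated best with their own number. Leaving out 1 library at a time gave 4 to 11 let-7 targets lower and 4 to 10 higher in MIA PaCa-2, and the other counts stayed within 1.5 times.

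No member changed sign under any alternative. HMGA2 in PANC-1 ranged from -2.22 to -2.11, HMGA2 in PaTu 8988T from -1.23 to -0.71 (it did not pass the filter at 5 FPKM), LIN28B in PANC-1 from 1.17 to 1.30 and IGF2BP3 in MIA PaCa-2 from 0.53 to 0.92. The median of genes with 2 or more seed matches in PANC-1 ranged from 0.106 to 0.246, that in MIA PaCa-2 from 0.07 to 0.147 and that in PaTu 8988T from 0.00674 to 0.0976. Apart from MIA PaCa-2 without control replicate 2, medians of genes with no match are not given under these alternatives. Depth limits statements on LIN28B, IGF2BP1 and HMGA2 where a line had 0 to 4 reads.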

Other observations

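Other oncofetal genes were few in these lines. Of a list of 10, 3 were tested in each line. In PANC-1, PEG10 rose, while ROR1, a receptor-like kinase, fell from 3.33 ± 0.265 to 1.38 ± 0.146 FPKM (log2 fold change -1.22, limma adjusted p = 4.44e-06) and TPBG, the 5T4 antigen, fell (-0.52, adjusted p = 1.25e-07). In MIA PaCa-2, ROR1 fell (-1.41, adjusted p = 0.000884), as did H19 (-1.02, adjusted p = 0.00942), and 0 rose. In PaTu 8988T, MSLN, the mesothelin gene, fell (-0.28, adjusted p = 0.00357), as did PEG10 (-0.16, adjusted p = 0.0454). IGF2, the RNA after which the IGF2BP family is named, was looked up after its values were seen. It fell in PANC-1 from 38.2 to 26.5 FPKM on average (-0.53, adjusted p = 5.02e-07), while IGF2BP1 and IGF2BP3 were higher there. A link was not tested. In MIA PaCa-2, IGF2 averaged 1.43 FPKM in controls and 1.52 in shOFD1 libraries (0.10, adjusted p = 0.647). In PaTu 8988T it averaged 0.701 and 0.313 FPKM, below the filter, and was not tested.

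TUT4 had means of 16.6 FPKM in PANC-1 and 6.83 in MIA PaCa-2 controls but 0 or 1 read in each PaTu 8988T library, although its gene length was the same in all lines. The uridylase TUT7, its relative, was not changed past the threshold in any line. TRIM71, with 6 seed matches the most of any gene searched, had at most 0.270 FPKM in any library.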
